A study of Homo sapiens with 4 samples.

Results

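Genes named ZNF encode zinc finger proteins, and the set described here holds the 258 protein-coding ZNF genes that lie outside chromosome 19. They were chosen by gene symbol (ZNF followed by a digit), gene type and chromosome in the GENCODE release 29 annotation, out of 19314 protein-coding genes and 62893 genes in the count table. A further 247 ZNF genes lie on chromosome 19, where the largest clusters of the family are found. The rule itself uses no measured value, but the family was picked after its fall in this comparison was known. Counts of members called and their fold changes are therefore given as a description of the family and support nothing further.

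Most ZNF proteins carry C2H2 zinc fingers, small folds in which a pair of cysteines and a pair of histidines hold a zinc ion, and arrays of such fingers read DNA sequence. Successive fingers are joined by a short conserved linker, usually called the TGEKP linker after its amino acids. Many members also hold a KRAB domain, which recruits the corepressor TRIM28 and through it the histone methyltransferase SETDB1 and HP1 proteins to silence chromatin, often at transposable elements. Other members have a SCAN domain, or few fingers and a role in RNA handling.

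Poly(A) RNA came from T24, an established human bladder carcinoma cell line, treated with control siRNA (siControl, 2 libraries) or with siRNA against NSUN2 (siNSUN2, 2 libraries). NSUN2 encodes an RNA cytosine methyltransferase. All 4 libraries are of this same line. The sources used here do not give the number and sequence of the siRNAs against NSUN2, or whether replicates came from separate cultures. The p-values therefore reflect how much these 4 libraries vary, and part of that may be technical.

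Library totals ran from 33633249 to 215936965 counts, a 6.42-fold range, and 1 CPM, the unit of counts scaled to library size, stood for 34.2 to 213 counts. NSUN2 stood at 281 and 284 CPM in siControl and at 29.6 and 30.1 CPM in siNSUN2 libraries. Of the epithelial keratins, KRT8 and KRT18 lay between 459 and 633 CPM in every library and KRT7 between 108 and 133 CPM, whereas KRT19, EPCAM, CDH1 and UPK3A, also epithelial or urothelial markers, were at or below 0.094 CPM. UPK2 and UPK1A, of the uroplakins of urothelium, were at or below 0.244 CPM, and UPK1B fell from 3.86 and 4.18 CPM to 1.62 and 2.07 CPM (log2 fold change −1.13). Of 10 marker genes of blood, endothelial and connective tissue cells, none exceeded 3.30 CPM in any library. COL1A1, a collagen of connective tissue, rose from 0.847 and 1.64 CPM to 2.92 and 3.30 CPM (log2 fold change 1.28, adjusted p = 0.0118). CDH5, of endothelium, reached 1.87 CPM in siNSUN2 replicate 2 and did not pass. LYZ (1.55 CPM) and PTPRC (0.584 CPM), of blood cells, were above 0.044 CPM only in siNSUN2 replicate 2, and the part of these markers in the results was not tested.

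The 6-base word ACCCTA was chosen for description with its relation to lower values in these data known, and the linker between fingers can spell it. The lysine and proline codons of the linker followed by a tyrosine codon read as ACCCTA when lysine is AAA and proline is CCC. Other codons for the same amino acids do not hold the word. The linkers of 5 members that fell and of 4 members called higher, in which no linker spells it, are shown for this reason, each from the codon before the linker, 5′ to 3′ on the mRNA strand, with the 6 bases at the place of the word in capitals.
ZNF664: cacacaggagagaaACCCTAtaaa
ZNF124: cacactggagagaaACCCTAtgaa
ZNF41: tatacaggagaaaaACCCTAtctg
ZNF678: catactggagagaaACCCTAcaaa
ZNF721: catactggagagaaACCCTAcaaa
ZNF213: cacacgggcgagaaGCCACAcaag
ZNF771: cacacgggcgagaaGCCGTAcgca
ZNF316: cacaccggcgagaaGCCCTTcccg
ZNF74: cacaccggcgagaaGCCCTTcttc

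These are coding bases of the GENCODE release 29 transcripts. On GRCh38 the ZNF664 linker lies at chr12:124012637-124012660 on the plus strand, and the ZNF721 linker at chr4:443717-443740 on the minus strand. The counts themselves were made on hg19, so the reference was joined to them only by gene ID. The first 5 members keep the word in the linker shown, and the last 4 replace it with a spelling that starts with G. Of the last 4, only ZNF771 has a tyrosine codon after the linker. ZNF213 has a histidine codon there, and ZNF316 and ZNF74 have a phenylalanine codon, so their linkers differ from the first 5 in amino acids too. None of these 4 was called higher with GC and length trends taken off, that is, when each library was corrected for how its counts vary with a transcript's GC content and length. They do not stand for all members whose linkers avoid the word, since ZNF689 and ZNF519 fell. With the trends taken off, ZNF689 was still lower (log2 fold change −1.51), whereas ZNF519 was no longer called (−0.24).

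The word was frequent in the coding sequences of these genes. A search of the mRNA strand of the longest complete coding sequence found ACCCTA in 56.0% of the 257 members that have one, against 16.7% of 18529 coding genes that are not ZNF genes. At least 3 copies stood in 70 members (27.2%) and in 0.540% of the other coding genes. Per kilobase of coding sequence, members held 0.867 copies, other coding genes 0.117 and the ZNF genes on chromosome 19 1.90. Of the 452 copies in members, 246 (54.4%) lay in a TGEKP linker, and 408 (90.3%) lay in the reading frame of the linker, in which CCC encodes proline and TA starts a tyrosine codon. Members encoded 801 such linkers in all, and 30.7% of them spelled the word.

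Among the ZNF genes outside chromosome 19, falls were more numerous than rises after NSUN2 siRNA. The filter on low counts kept 213 of the 258 members, 2 of them through the siNSUN2 libraries alone and 0 through the siControl libraries alone. Of the 213, 116 were lower (54.5%), 40 were higher and 57 did not pass an adjusted p of 0.05 (edgeR quasi-likelihood test over all 16889 genes kept). Over all genes tested, 25.5% were lower and 27.1% were higher. Over the 12604 protein-coding genes among them, the shares were 30.7% and 33.6%. The median log2 fold change of the members tested was −0.27, against 0.03 over all genes tested. A fall of at least 2-fold was called for 38 members, and a rise of at least 2-fold for 5. Over all genes tested, 3.99% were called at least 2-fold lower and 5.5% at least 2-fold higher. These shares stand beside the members' counts as a description, since the family was picked on this comparison. Of the 45 members not tested, 14 had 0 counts in every library and none exceeded 0.321 CPM.

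Falls were most frequent among the members with several copies of the word in the coding sequence, which held 49 of the 116 lower members. Of 54 members tested with at least 3 copies, 49 were lower (90.7%), 0 were higher and 5 did not pass, with a median log2 fold change of −1.02. With no copy, 29 of 94 members were lower and 33 were higher, and the median was 0.03. With GC and length trends taken off, 27 of the 94 were lower and 16 higher. Members with 1 to 2 copies lay between these classes, with 37 of 64 lower, 7 higher and a median of −0.27. The median was −0.96 for the 39 members with 3 to 5 copies and −1.20 for the 15 with 6 or more. With each library left out in turn, 45 to 48 of the 54 members with at least 3 copies were lower and 0 were higher. Across the 212 members tested with a coding sequence, the log2 fold change went down with the number of copies (Spearman −0.60, Pearson −0.55), a description over genes that share the same libraries and differ in base composition.

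**Figure D1:**
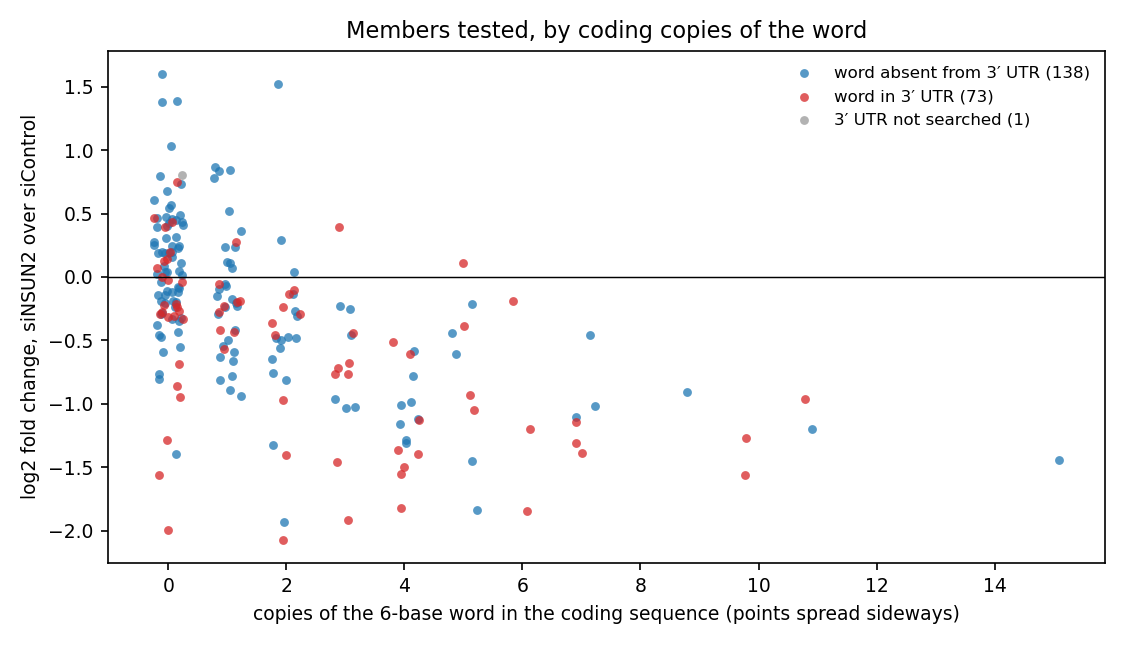
Log2 fold change (siNSUN2 over siControl) of each member tested against the number of ACCCTA copies in its coding sequence, 1 point a gene, coloured by the presence of the word in the 3′ UTR. Of the members with at least 3 copies only 2 lie above 0, and the members with no copy spread to both sides.

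The 5 members with at least 3 copies that did not pass were ZNF117, ZNF19, ZNF23, ZNF267 and ZNF483, named here because they are few. All 5 were at low levels, from 0.706 to 5.68 CPM over the libraries. ZNF117, with 5 copies, had 5.06 and 4.85 CPM in siControl and 5.68 and 4.97 CPM in siNSUN2 libraries, and the groups overlapped. ZNF23, with 3 copies, had 0.706 and 0.936 CPM against 1.18 and 0.993 CPM and a log2 fold change of 0.39 (SE 0.30) that did not pass.

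The 5 members with the most copies all fell. ZNF721, with 15 copies and 23 finger patterns, had 78.7 and 83.8 CPM in siControl and 31.4 and 28.2 CPM in siNSUN2 libraries (log2 fold change −1.44, SE 0.061, adjusted p = 4.62e-07). ZNF107, with 11 copies, went from 39.3 and 36.2 CPM to 20.02 and 18.7 CPM, and ZNF624, also with 11, from 10.8 and 10.4 CPM to 5.40 and 3.71 CPM. ZNF678, with 10 copies, went from 23.96 and 22.6 CPM to 7.25 and 8.65 CPM. ZNF92, with 10 copies, went from 20.1 and 19.4 CPM to 8.59 and 7.74 CPM. In each of these genes both siNSUN2 libraries lay below both controls. The groups did not overlap, in either direction, in 190 of the 213 members tested, and the share over all genes was not counted.

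The deepest falls among members with average log2 CPM of at least 1 were those of ZNF214, ZNF487, ZNF664, ZNF629 and ZNF41. ZNF214, a KRAB member with 2 coding copies, went from 5.95 and 6.69 CPM to 1.45 and 1.58 CPM (log2 fold change −2.07, SE 0.16). ZNF664 was among the most abundant members and went from 223 CPM in both siControl libraries to 59.3 and 57.4 CPM (log2 fold change −1.93, SE 0.042, adjusted p = 1.24e-08). Its coding sequence holds 2 copies, both in linkers, and its 3′ UTR holds none. ZNF629 went from 40.9 and 39.7 CPM to 10.6 and 10.7 CPM (−1.92), with 3 coding copies and the word in the 3′ UTR. ZNF41, an X-linked KRAB gene with 6 copies, went from 18.9 and 18.6 CPM to 5.30 and 5.08 CPM (−1.85).

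Of the other deep falls, ZNF124 went from 14.2 and 12.9 CPM to 3.51 and 4.12 CPM (log2 fold change −1.84), and ZNF37A from 64.6 and 65.3 CPM to 17.8 and 19.2 CPM (−1.82). ZNF268 (−1.55), ZNF138 (−1.46) and ZNF195 (−1.45) had 4, 3 and 5 coding copies. The counts of ZNF37A, ZNF33A (−1.39) and ZNF33B (−1.14) are uncertain, since related genes can share reads, and such sharing was not measured. The same holds for ZNF695 (−1.50) and the readthrough gene ZNF670-ZNF695 (−1.84), which overlap and for which the annotation gives no complete joint coding sequence.

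**Figure D2:**
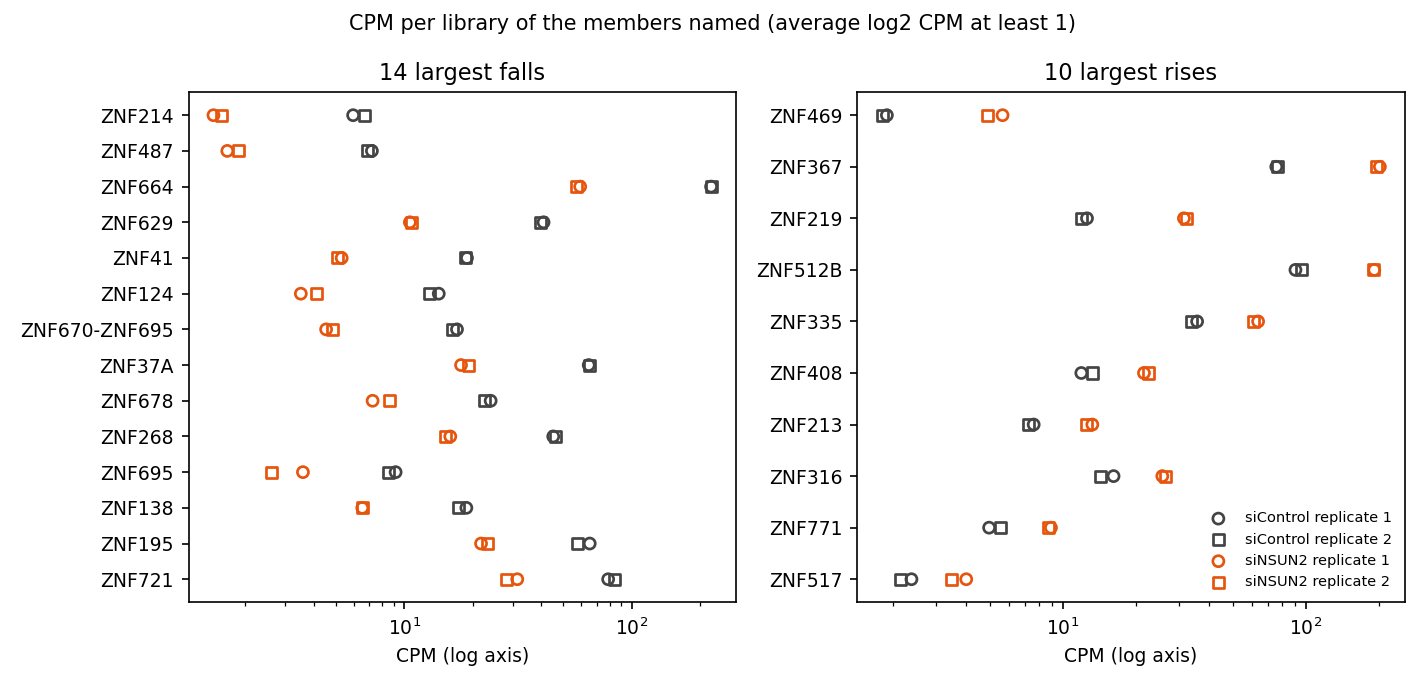
CPM (log axis) in each of the 4 libraries for the 14 members with the largest called falls and the 10 with the largest called rises, average log2 CPM of at least 1. Grey marks are siControl and orange marks siNSUN2 libraries. Only members whose groups do not overlap were eligible to be shown.

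Some members fell with no copy in the coding sequence, and several of these carried the word in the 3′ UTR. The 3′ UTR held ACCCTA in 32.1% of the members searched, against 19.3% of other coding genes. The sites of 4 members with deep falls, with 12 bases on each side, show where the word stands.
ZNF487: cagaggagagaaACCCTAtgaatgcactga
ZNF106: ttacccagtttgACCCTAatcatatgtata
ZNF629: gaagggaggataACCCTAtcagatggtagt
ZNF689: gttttccaagctACCCTAtcctaaaatagt

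The ZNF487 site lies at chr10:43482395-43482424 (GRCh38, plus strand) in the annotated 3′ UTR, and it shares a run of 18 bases with the coding linker of ZNF124 printed above. ZNF487 went from 7.20 and 6.88 CPM to 1.67 and 1.87 CPM (log2 fold change −2.00, SE 0.15), with 0 finger patterns in its annotated coding sequence. ZNF689, whose 6 linkers all avoid the word, went from 18.6 and 21.9 CPM to 8.30 and 8.32 CPM (−1.29).

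Within the members with no coding copy, 15 of 26 with the word in the 3′ UTR were lower and 5 were higher (median −0.23). Without it, 14 of 67 were lower and 27 were higher (median 0.11). With GC and length trends taken off, these medians were −0.08 and −0.05, with 10 of 26 against 17 of 67 lower and 5 against 10 higher. The median GC content was 47.0% with the word in the 3′ UTR and 53.7% without it. Within the members with 3 to 5 coding copies, the medians were −0.85 with the word in the 3′ UTR (n = 20) and −0.99 without it (n = 19). With 6 or more they were −1.27 (n = 9) and −1.06 (n = 6). Of the 14 lower members that held no copy in either place, ZNF720 had the largest fall, from 30.4 and 30.1 CPM to 12.4 and 10.4 CPM (−1.399). The other 13 had log2 fold changes between −0.59 and −0.14.

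Members that share the TGEKP linker differed in their values with the share of linkers that spell the word. A linker can lack the word through its own codons or because the next amino acid is not tyrosine, and these were not told apart. Of 97 members tested with at least 3 TGEKP linkers, 53 spelled the word in more than 25% of them, and 47 of these were lower and 0 higher (median −0.96). Of the 16 that spelled it in some linkers but no more than 25%, 13 were lower and 0 higher (median −0.58). Of the 28 in which no linker spelled it, 12 were lower and 10 higher (median −0.26). With GC and length trends taken off, these 28 had 12 lower and 2 higher (median −0.16), and the 53 had 43 lower and 0 higher (median −0.78). Median GC content was 47.6% in the 28 and 41.3% in the 53. In the 18 of the 97 whose whole coding sequence lacked the word, 5 were lower and 8 were higher (median −0.03), and with GC and length trends taken off 6 were lower and 1 higher (median −0.13).

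ZNF250, with 10 linkers and no copy, had 10.1 and 9.28 CPM in siControl and 8.52 and 7.33 CPM in siNSUN2 libraries, and did not pass (log2 fold change −0.29, adjusted p = 0.0509). ZNF74, with 6 linkers, stood at 12.7 and 12.6 CPM against 14.2 and 14.7 CPM (0.19, adjusted p = 0.0468), and this call was lost with each of the 4 libraries left out and with DESeq2. ZNF322, with 5 linkers, had 16.5 and 23.5 CPM in siControl and 15.0 and 17.03 CPM in siNSUN2 libraries. Its groups overlapped and it did not pass, but without siControl replicate 1 it was lower (−0.62, adjusted p = 7.78e-07). ZNF519, also with 5 linkers, fell from 14.7 and 13.0 CPM to 9.22 and 9.67 CPM (−0.55). This call was lost with GC and length trends taken off (−0.24).

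Other spellings of the same 6 bases were counted as well: GCCCTA with a changed first base, and the proline spellings ACCTTA then ACCATA then ACCGTA. They were chosen after the values were seen. Of 36 members tested with no ACCCTA but at least 3 copies of these spellings, 12 were lower and 12 were higher, with a median of −0.09. Members with no ACCCTA and at most 2 such copies had a median of 0.07, with 17 of 58 lower and 21 higher. With GC and length trends taken off, 10 of the 36 were lower and 5 higher (median −0.08). The 58 then had 17 lower and 11 higher (median −0.03). Median GC content was 48.55% in the 36 and 51.9% in the 58. Of the 36, 25 also lacked the word in the 3′ UTR, with 6 lower and 9 higher, and 7 and 3 with the trends taken off.

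**Figure D3:**
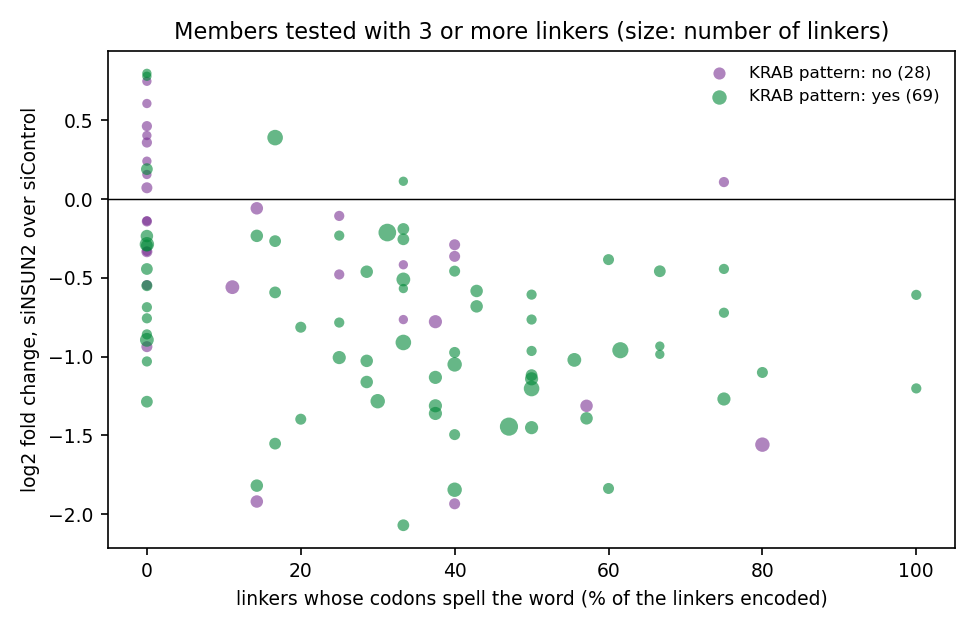
Log2 fold change of the 97 members tested with at least 3 TGEKP linkers against the percentage of their linkers that spell ACCCTA, with point size for the number of linkers and colour for the KRAB pattern. The members at 0% spread above and below 0, and those above 0% lie mostly below 0.

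GC content moved with the number of copies, and with the fold changes. The median GC content of the transcript was 51.1% in members tested with no copy and 41.1% in those with at least 3 copies. Across the 212 members, Spearman correlation of the log2 fold change with GC content was 0.56, and of the number of copies with GC content −0.37. When each library was corrected for its trends with GC content and length, the Spearman correlation with GC content was 0.16 and that with copies −0.52. The median of members with at least 3 copies was then −0.80, with 44 of 54 lower and 0 higher, and that of members with no copy was −0.07. Over all genes, 24.4% were lower and 22.6% higher with these trends taken off.

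The members tested were then split by GC content into 3 classes of 71. In the class with the lowest GC content, up to 42.3%, the 36 with at least 3 copies had a median of −1.03 and 32 were lower. The 25 with no copy had a median of −0.29 and 17 were lower. With GC and length trends taken off, 29 of the 36 were lower and 0 higher (median −0.81). Of the 25, 6 were then lower and 5 higher (median −0.07). In the middle class, 15 of 16 members with at least 3 copies were lower (median −0.94), against 9 of 23 with no copy (median −0.14). With the trends taken off, 13 of the 16 were lower and 0 higher (median −0.77). Of the 23, 6 were then lower and 5 higher (median −0.006). The highest class, above 51.5%, held 29 of the 33 rises among members with no copy (median 0.31). There, only 2 members had at least 3 copies, and both fell. With the trends taken off, the median of 0.31 became −0.10, with 16 of the 47 lower and 6 higher.

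**Figure D4:**
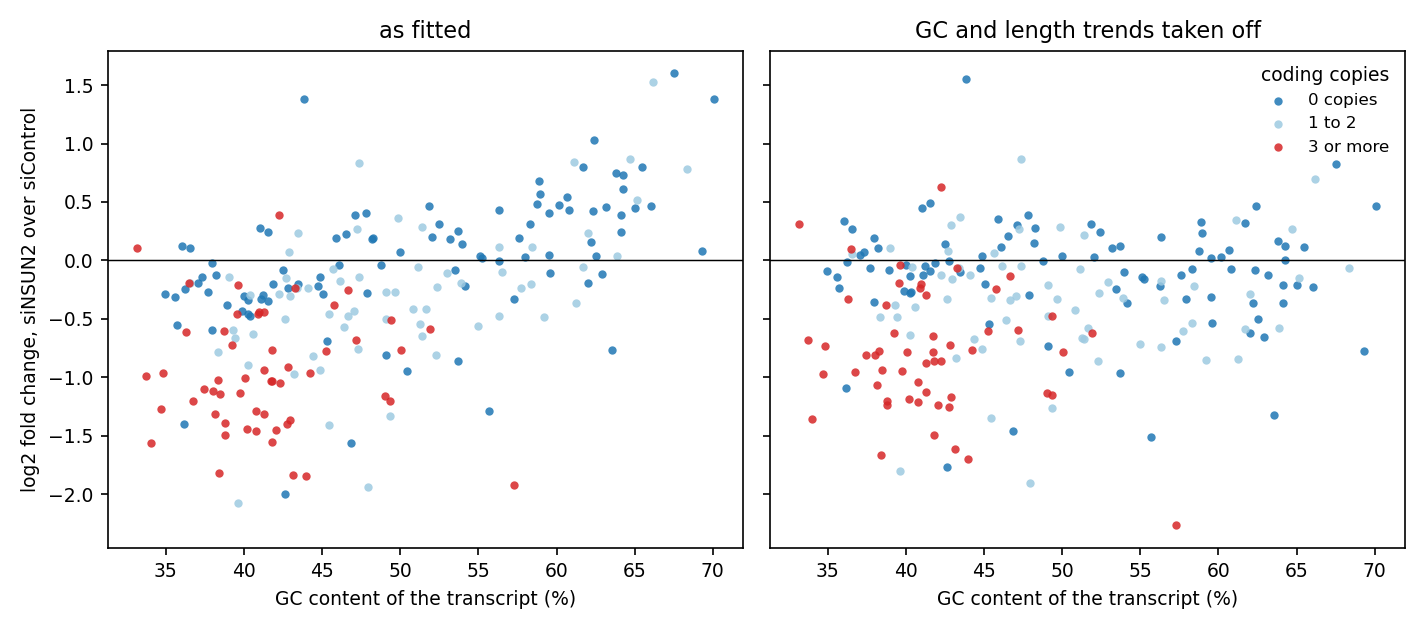
Log2 fold change of the members tested against the GC content of the transcript, as fitted (left) and with GC and length trends taken off (right), coloured by coding copies of ACCCTA. Members with at least 3 copies, in red, mostly lie lower than members with no copy at a like GC content in both panels.

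Proteins were sorted by a pattern of the KRAB domain in their translated coding sequences, which 116 members matched and 36 of 18217 coding genes outside the zinc finger families also matched. Of 93 KRAB members tested, 68 were lower (73.1%) and 9 higher (median −0.61). Of 120 members without a match to the pattern, 48 were lower (40.0%) and 31 higher (median −0.12). Within each KRAB class the medians went down with the copies. KRAB members with no copy had 9 of 25 lower and 7 higher (median −0.04), and those with 3 to 5 copies 33 of 35 lower (median −0.99). With GC and length trends taken off, these were 9 lower and 1 higher (median −0.16) and 28 lower (median −0.78). Their median GC content was 54.1% and 41.7%. Members without a match had medians of 0.08 with no copy (n = 69), −0.77 with 3 to 5 (n = 4) and −1.44 with 6 or more (n = 2). The 4 include ZNF202, which is among the KRAB or related genes listed below. The lack of a match therefore does not show that the domain is absent. Among the 88 members tested with at least 10 finger patterns, the 25 with no copy had a median of 0.07 and the 42 with at least 3 copies one of −1.02. With the trends taken off, these medians were −0.07 (6 lower and 3 higher) and −0.80 (35 lower and 0 higher). Median GC content was 53.7% in the 25 and 40.5% in the 42.

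Of 11 tested members listed as KRAB or related genes with a described role, 8 fell and 3 rose. Over all genes tested the shares were 25.5% lower and 27.1% higher. ZNF10, the source of the KRAB domain used in many synthetic repressors, fell from 12.1 and 12.2 CPM to 8.18 and 7.83 CPM (log2 fold change −0.61) and held 4 coding copies. The X-linked genes ZNF182 (−1.36), ZNF81 (−0.76) and ZNF674 (−1.01) held 4, 3 and 4 copies. ZNF202, a repressor of lipid metabolism genes with 3 copies, fell from 25.3 and 24.8 CPM to 15.2 and 14.2 CPM (−0.77). The 3 that rose held no copy: ZNF445, which protects imprinted DNA methylation (0.39, from 27.4 and 31.4 to 38.5 and 38.8 CPM), ZNF746, a repressor of the gene of the coactivator PGC-1α (0.47), and ZNF74. ZNF746 stood at 0.03 with GC and length trends taken off.

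The partners through which KRAB proteins act showed falls and rises. Of 20 genes of the KRAB cofactor machinery tested, 11 were lower, 4 were higher and 5 did not pass (median −0.23), beside 25.5% lower and 27.1% higher over all genes tested. With GC and length trends taken off, 13 of the 20 were lower and 1 higher, beside 24.4% and 22.6% over all genes. TRIM28, the corepressor that binds KRAB, had 335 and 322 CPM in siControl and 396 and 359 CPM in siNSUN2 libraries (log2 fold change 0.20, adjusted p = 0.0119). With GC and length trends taken off it was lower (−0.39). SETDB1, the H3K9 methyltransferase, had 36.5 and 35.6 CPM against 35.0 and 35.1 CPM and did not pass (−0.04, SE 0.049). The HP1 genes split, with CBX3 falling from 343 ± 4.96 to 199 ± 5.80 CPM (SD, n = 2, −0.78) and CBX5 rising from 163 ± 3.47 to 227 ± 2.44 CPM (0.48). CHD4, of the NuRD complex, fell by 0.58 on the log2 scale, and PPHLN1, of the HUSH silencing complex, by 0.51.

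Among the members that handle RNA, 5 of 10 tested were lower and 3 were higher, beside 25.5% lower and 27.1% higher over all genes tested. ZNF106, an RNA-binding protein, went from 145 and 146 CPM to 56.1 and 53.8 CPM (log2 fold change −1.404, SE 0.043). It has 2 coding copies outside linkers and a 3′ UTR site printed above. ZNF638, which takes part in splicing and in silencing of retroviral DNA, fell from 177 CPM in both controls to 113 and 110 CPM (−0.66). ZNF326, a subunit of a complex that couples transcription and splicing, fell by 0.31 and stood at −0.04 with the trends taken off. ZNF598, the ubiquitin ligase that marks collided ribosomes, rose from 58.4 and 60.4 CPM to 79.7 and 82.8 CPM (0.45), but was lower with the trends taken off (−0.21).

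Among corepressor and chromatin regulators, 8 of 20 tested were lower and 5 higher (median 0.04), beside 25.5% lower and 27.1% higher over all genes tested. With the trends taken off, 4 were lower and 6 higher. ZNF335, part of a histone methyltransferase complex, rose from 35.7 and 34.0 CPM to 63.7 and 61.2 CPM (log2 fold change 0.84, and 0.34 with the trends taken off). ZNF592, a partner of the chromatin reader ZMYND8, rose by 0.47, from 44.7 and 44.9 CPM to 62.6 and 61.1 CPM. ZNF609, a partner of the cohesin loader NIPBL, fell from 88.1 and 85.1 CPM to 67.3 and 62.4 CPM (−0.42). Of 13 activators and developmental regulators tested, 6 were lower and 2 higher (median −0.15), and with the trends taken off 3 were lower and 3 higher. ZNF76, a relative of the promoter factor ZNF143, rose by 0.68, whereas ZNF143 itself did not pass (−0.08, adjusted p = 0.233). ZNF217, an oncogene product of the CoREST complex, rose by 0.24. ZNF148, a GC-box binding factor, had a log2 fold change of −0.32 and fell from 69.5 and 72.4 CPM to 57.8 and 56.2 CPM.

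The largest rises among members with average log2 CPM of at least 1 came mostly from GC-rich genes. ZNF469, mutated in a connective tissue disorder of the cornea, rose from 1.88 and 1.80 CPM to 5.64 and 4.91 CPM (log2 fold change 1.52, and 0.70 with the trends taken off, GC content 66.2%). ZNF219 rose from 12.6 and 11.96 CPM to 31.5 and 32.2 CPM (1.38, and 0.47 with the trends taken off). ZNF512B rose from 90.8 and 96.2 CPM to 192 and 190 CPM (1.03, and 0.46).

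ZNF367 was the exception in base composition, with a GC content of 43.9%. It rose from 75.7 and 76.6 CPM to 202 and 195 CPM (log2 fold change 1.38, SE 0.041, adjusted p = 4.06e-08), and stood at 1.56 with the trends taken off. Its coding sequence and 3′ UTR hold no copy. ZNF408 rose by 0.80 (0.32 with the trends taken off). ZNF213 (0.80), ZNF771 (0.75) and ZNF517 (0.73) were no longer called with the trends taken off, at 0.11, 0.17 and 0.13. ZNF517 was not called without siControl replicate 2 (0.64, adjusted p = 0.0506) or without siNSUN2 replicate 1 (0.62, adjusted p = 0.060). ZNF316 (0.78) stood at −0.07 with the trends taken off.

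Members were also compared by CPM per kilobase of coding sequence, as means over the 4 libraries. The highest were ZNF706 (209), ZNF24 (197), ZNF664 (179), ZNF207 (153) and ZNF367 (131). The counts are per gene, so a short coding sequence (231 bases in ZNF706) raises this measure, and it does not rank abundance. ZNF706, a small protein with a single finger, had 52.9 and 53.4 CPM against 43.3 and 43.4 CPM (log2 fold change −0.29). ZNF24, a SCAN-domain factor, had 233 and 244 CPM against 201 and 195 CPM (−0.27). Both calls were lost with the trends taken off (−0.05 and −0.07). ZNF207, a spindle and kinetochore protein, had 231 and 233 CPM against 234 and 216 CPM, with overlapping groups (−0.04, adjusted p = 0.491). It was higher with the trends taken off (0.12) and lower without siNSUN2 replicate 1 (−0.10, adjusted p = 0.0498).

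By chromosome, the members differed in direction, in coding copies and in GC content. The direction did not follow the number of members with at least 3 copies on every chromosome. Over all genes tested, 25.5% were lower and 27.1% were higher. On chromosome 10, 10 of 14 members tested were lower and 0 higher (median −0.95), and 5 held at least 3 copies. On chromosome 12, 9 of 12 were lower (median −0.66), and 6 held at least 3 copies. On chromosome 4, all 6 members tested were lower (median −0.52), of which 3 held at least 3 copies and 3 held none. Of the 3 with none, ZNF827 held the word in the 3′ UTR, and ZNF330 and ZNF518B did not. On chromosome 15, 4 of 7 were lower and 1 higher (median −0.20), with 0 members holding at least 3 copies and 2 holding none. Of the 4 lower there, ZNF106, ZNF280D and ZNF609 held 2, 1 and 1 copies and also the word in the 3′ UTR. ZNF770 held it in neither place. On chromosome 16, 7 of 25 were lower and 10 higher (median 0.07, median GC content 58.8%), and 5 held at least 3 copies. With the trends taken off, the direction on chromosome 16 turned, with 11 lower and 2 higher (median −0.21). On chromosome 20, 1 of 7 was lower and 4 higher, with 0 members holding at least 3 copies.

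The ZNF genes on chromosome 19 are given side by side, with no test of the difference between the sets. Of 206 tested there, 115 were lower (55.8%) and 19 higher (median −0.39). Their medians were 0.05 with no copy (n = 73), −0.20 with 1 to 2 (n = 47), −0.96 with 3 to 5 (n = 39) and −1.17 with 6 or more (n = 47). Coding genes that are not ZNF genes had medians of 0.08 with no copy (n = 9978), −0.09 with 1 to 2 (n = 2081), −0.21 with 3 to 5 (n = 63) and −0.73 with 6 or more (n = 8). In related families with other names, 10 of 14 ZSCAN, 5 of 7 ZKSCAN and 9 of 16 ZFP genes tested were lower, with 0, 0 and 5 higher. Of 38 ZBTB genes tested, 8 were lower and 17 higher (median 0.27).

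**Figure D5:**
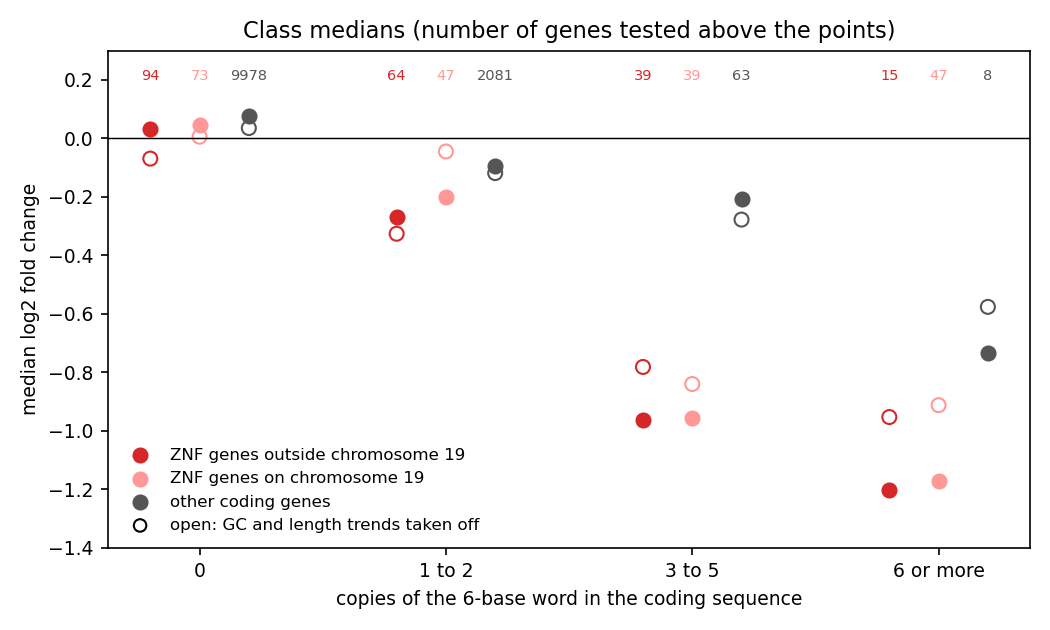
Median log2 fold change by the number of ACCCTA copies in the coding sequence for ZNF genes outside chromosome 19, ZNF genes on chromosome 19 and other coding genes, as fitted (filled) and with GC and length trends taken off (open). For both ZNF sets the medians go from near 0 with no copy to −1.20 and −1.17 with 6 or more.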

How the data were processed

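The deposited values are whole-number counts of reads for each Ensembl gene ID, made by the authors with HISAT2, HTSeq and hg19 per the submitters' processing notes. The sources used here do not state versions, annotation or strand setting, so overlapping and antisense genes may share counts. Every gene was fitted with edgeR 4.0.16 in R 4.3.3 (TMM factors, filterByExpr, robust quasi-likelihood F-test, two-sided, Benjamini-Hochberg adjustment over 16889 genes, threshold 0.05), with no block. Standard errors come from the F statistic. CPM use TMM-scaled library sizes. Symbols, chromosomes and transcripts came from GENCODE release 29 (GRCh38), joined by gene ID. Coding sequences are the longest complete ones, and 3′ UTRs the longest of at least 50 bases. GC and length trends were loess fits per library (span 0.3) used as offsets. Named genes are the 14 largest called falls and 10 largest called rises (groups not overlapping, average log2 CPM from 1 up). Also named are the 5 with the most CPM per kilobase of coding sequence and up to 4 called members per role list. Members with the most copies, or with the most linkers but no copy, are named too. Others were chosen after their values were seen. Members and lists were chosen with earlier results of these data known. The fit was tested on simulated data. Alternatives were DESeq2 1.42.0, limma-voom (limma 3.58.1), other scaling, filters and thresholds, thinned libraries, the replicate number as a block, and each library left out.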

Additional observations from a re-analysis of the deposited data

How the results depend on the processing

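With GC and length trends taken off, 23 members were higher in place of 40, and 26 against a fold of 1.2. The 116 lower members went to between 82 (fold of 1.2) and 119 (limma-voom) over the alternatives. Without each library in turn, the median over members ran from −0.33 to −0.22, members higher from 32 to 39 and members lower from 102 to 117. The class medians ran from −0.040 to 0.041 with no copy, −0.34 to −0.21 with 1 to 2, −1.02 to −0.86 with 3 to 5 and −1.25 to −1.11 with 6 or more. With the trends taken off they were −0.069, −0.33, −0.78 and −0.95. Among members without the word in the 3′ UTR they were 0.11 with no copy, −0.25 with 1 to 2 and −1.06 with 6 or more, and with AACCCTA as the word −0.46 with 1 to 2. The trends taken off reversed ZNF316 (−0.067), ZNF207 (0.12), ZNF598 (−0.21), ZNF74 (−0.12) and TRIM28 (−0.39), and with the replicate block added these were −0.068, 0.11, −0.21, −0.12 and −0.39. Without siNSUN2 replicate 2, ZNF207 stood at 0.022. The causes of these changes were not tested. The replicate block gave 118 lower and 45 higher members (109 and 28 with the trends taken off). Same-numbered libraries deviated from their group means with a correlation of 0.156, with only 2 pairs, and the labels tie the numbers to nothing shared. Of the other values of named genes under the alternatives, 708 kept their direction and their side of the threshold, 27 lost the call and 10 gained one. With 2 libraries a group, left-out fits take the spread of the lone library from the other group. Low members, such as those under 1 CPM, rest on few counts in the shallow libraries.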
